A study of Mus musculus with 4 samples.

Results

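The 854 wide control-only sites described here are stretches of open chromatin in mouse pachytene spermatocytes that were listed for control cells, had no listed counterpart in Znhit1 knockout cells, and lay away from the ends of genes. ATAC-seq reads out exposed DNA by letting Tn5 transposase insert adapters there, and the question of the study was how losing ZNHIT1 changes accessible chromatin at this stage. The labels describe 4 libraries of pachytene spermatocytes from testis, all with the tag P35. They comprise 2 libraries of the genotype Znhit1_KO and 2 of the genotype CTRL, and 1 interval list was analysed for each genotype. The labels used here do not give the knockout's driver, the control's alleles or the strain, and the lists hold no marker measurements beyond whether a gene end carries an interval.

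A site was chosen from the positions in both lists. It had to be an interval of the control list on chromosomes 1 to 19, at least 500 bp wide, with no base inside any knockout interval, and more than 1 kb from both ends of every RefSeq gene of any kind. The 15376 different control intervals held 15241 on autosomes, of which 6118 were at least 500 bp wide. Of those wide control intervals 1354, or 22.1%, had no knockout overlap, and 854 of the 1354 lay away from gene ends. They are 854 of the 36380 different intervals in both lists together, and they cover 527 kb. Since width, overlap and distance from gene ends made the choice, those 3 properties are given as descriptions. With 1 list per genotype nothing could be checked in a replicate, and no test was run. The 95% intervals are exact Clopper-Pearson intervals for shares and order-statistic intervals for medians, and they cover counting error only.

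In meiotic prophase, PRDM9 binds DNA through its zinc fingers and marks nearby nucleosomes, and SPO11 then breaks DNA at those hotspots, most of which lie away from promoters in mice. Pachytene is the stage at which homologous chromosomes are fully joined and the breaks are being repaired. ZNHIT1 is a subunit of the SRCAP complex, which exchanges H2A for the variant H2A.Z in nucleosomes, a mark best known at promoters and enhancers. Mouse chromosomes have the centromere at the tip where coordinates begin, so the end of the coordinates is the far telomere, and male crossovers in mice are frequent toward that end.

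Although chosen away from gene ends, 26 of the control-only sites overlapped the window around an annotated transcription start, and 25 of them contained the start base. Sequences are shown for 5 of the 8 windows that a site covered completely, where letters from RefSeq can be set beside a site. They were picked after their values were seen, and their numbers of CG dinucleotides run from 3 to 23. The other 3 belong to Tsc22d1, whose stretch held the most of the 8 with 31, Pik3cd with 19 and Aptx with 15. Each is the 250 bases before the start, in build GRCm38.p6 (the primary chromosomes of mm10), 5′ to 3′ on the gene's strand, with CG dinucleotides in capitals. Gtf2a1l encodes a germ-cell form of the general transcription factor TFIIA, and the stretch is chr17:88668410-88668659 on the plus strand. Tmem181a encodes a membrane protein, and its stretch is chr17:6270220-6270469 on the plus strand. Sgk1 encodes a serum- and glucocorticoid-induced kinase, and its stretch is chr10:21994416-21994665 on the plus strand. Pde4dip encodes myomegalin, a centrosome and Golgi protein, and its stretch is chr3:97768015-97768264 on the minus strand. Rbp7 encodes a retinol-binding protein, and its stretch is chr4:149454969-149455218 on the minus strand.
Gtf2a1l: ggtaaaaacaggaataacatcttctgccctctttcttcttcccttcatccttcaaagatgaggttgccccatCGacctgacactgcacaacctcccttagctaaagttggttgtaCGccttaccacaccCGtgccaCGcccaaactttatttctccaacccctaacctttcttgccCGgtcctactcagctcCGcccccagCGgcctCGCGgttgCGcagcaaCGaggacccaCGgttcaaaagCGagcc
Tmem181a: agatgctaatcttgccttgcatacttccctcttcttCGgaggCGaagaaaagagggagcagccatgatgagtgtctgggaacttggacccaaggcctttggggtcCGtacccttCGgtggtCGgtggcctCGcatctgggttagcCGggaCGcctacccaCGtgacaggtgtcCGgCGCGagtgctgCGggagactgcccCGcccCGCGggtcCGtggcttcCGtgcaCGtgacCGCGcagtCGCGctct
Sgk1: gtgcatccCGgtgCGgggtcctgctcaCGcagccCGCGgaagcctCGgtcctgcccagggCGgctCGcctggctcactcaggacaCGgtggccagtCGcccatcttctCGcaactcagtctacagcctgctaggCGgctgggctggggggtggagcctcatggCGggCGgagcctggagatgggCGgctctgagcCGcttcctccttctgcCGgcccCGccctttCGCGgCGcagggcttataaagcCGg
Pde4dip: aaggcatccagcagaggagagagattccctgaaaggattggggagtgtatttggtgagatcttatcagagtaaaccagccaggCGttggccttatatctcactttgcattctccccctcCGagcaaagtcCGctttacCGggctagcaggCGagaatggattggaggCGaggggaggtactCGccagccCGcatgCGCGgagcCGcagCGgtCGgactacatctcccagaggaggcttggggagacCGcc
Rbp7: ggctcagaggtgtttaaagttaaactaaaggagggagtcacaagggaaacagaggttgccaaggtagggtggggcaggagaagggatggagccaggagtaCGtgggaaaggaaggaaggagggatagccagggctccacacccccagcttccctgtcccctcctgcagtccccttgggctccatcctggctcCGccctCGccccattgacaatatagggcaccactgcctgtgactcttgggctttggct

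The stretches of Sgk1, Tmem181a, Pde4dip and Gtf2a1l held 22, 23, 14 and 13 CG dinucleotides, and that of Rbp7 held 3. Motifs were searched on both strands as exact letters. They were GGGCGG (the GC box), CCAAT, TGACGTCA (the full CRE bound by CREB and CREM) and TGACG (the short CRE, which every full CRE contains). The core bound by A-MYB was searched as TAACGG, also as TAACTG, also as CAACGG and also as CAACTG. A GC box stood in the stretches of Gtf2a1l, Tmem181a, Sgk1 and Rbp7. The stretch of Pde4dip held CCAAT and no GC box. The CRE and A-MYB letters were absent from these 5, but among the 3 not shown Tsc22d1 held a short CRE and CCAAT, and Pik3cd held an A-MYB core. Each of those 3 held a GC box.

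A full start window reaches from 250 bases before to 50 bases after the start. Over the 29 windows that met a site, the median number of CG dinucleotides was 18, against 24 in the windows met by wide knockout-only sites and 7 over all 31365 windows. A GC box stood in 62.1% of the 29 windows, in 65.2% of those met by knockout-only sites, in 73.6% of those met by shared intervals and in 36.0% of all windows. CCAAT stood in 41.4% of the 29 and in 37.3% of all windows. An A-MYB core stood in 17.2% of the 29 and in 28.1% of all windows. The short CRE stood in 20.7% of the 29 and in 21.0% of all windows. The CG and GC-box values of the 29 lay above those of windows in general. They were also below those of both other wide classes, but the GC box stood in 18 of 29 against 43 of 66 windows for knockout-only sites. The 29 windows belong to 26 genes, so they are too few to rank the wide classes. For the other motifs they are too few to read any difference. A match is only a match of letters. Start windows were available for 18 of the autosomes, without chromosome 18, and the counts of overlaps with start windows cover those.

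The sites were just past the chosen width. Their median width was 579 bp (95% interval 572 to 588), the quartiles were 531 and 663 bp, and the widest spanned 1733 bp. Of the 854, 487 were under 600 bp and 15 were over 1000 bp. Wide knockout-only sites away from gene ends, 725 in number and chosen the same way in the other direction, had a median of 570 bp. The 535 wide control intervals away from gene ends that did overlap a knockout interval had a median of 730 bp. The number of control-only sites per base of width showed no step at the limit, with 7 sites of exactly 500 bp and 7 excluded intervals of 499 bp. Just inside it were sites beside Apof and Vav1 and inside Hexdc and Cdh4, and just outside were intervals at chr4:110050882-110051380 and chr15:94404300-94404798. At the gene-end limit the nearest sites inside the rule were 1001, 1008 and 1014 bp from an end, and the nearest outside were 995, 994 and 985 bp.

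The widest site, at chr10:86590305-86592037, lay in no gene, 91379 bp from Syn3, which encodes the synaptic vesicle protein synapsin III. The next was chr17:6232409-6233703, 1295 bp wide, inside Tulp4, a tubby-like gene. A site of 1196 bp lay on chromosome 10 at 87620 bp from Btbd11. The fourth, 1194 bp wide at chr11:69546162-69547355, lay inside Dnah2, an axonemal dynein heavy chain gene. A site of 1180 bp at chr16:94917650-94918829 lay inside Kcnj6, which encodes a potassium channel subunit. It was 150 bp from a knockout interval, and it would count as shared if gaps of up to 500 bp were bridged. The remaining 5 of the 10 widest, from 1153 down to 1058 bp, lay beside Ptpn2, a tyrosine phosphatase gene, inside Atn1, the atrophin 1 corepressor gene, beside Tmem254b and Glrx3, and inside Tbcd, a tubulin-folding gene. Tmem254b has near-identical neighbours, and whether copies share reads there was not tested.

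Many intervals stand on more than 1 line of their list, and the lists do not say why. Of the 854 sites, 383 stood on 1 line, 389 on 2, 68 on 3, 12 on 4 and 2 on 5. Those 2 were the Tulp4 site and chr17:13423284-13424059, both near the centromere end of chromosome 17. In all, 55.2% of the sites (51.7% to 58.5%) were listed at least 2 times, against 49.9% of wide knockout-only sites (46.2% to 53.6%) and 81.1% of wide shared control intervals (77.5% to 84.4%). Shared intervals were also listed more often at matched width. From 600 bp to under 800 bp the share was 62.7% for control-only sites (56.9% to 68.2%), 60.0% for knockout-only sites (53.3% to 66.5%) and 81.8% for shared intervals (75.8% to 86.8%).

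**Figure D1:**
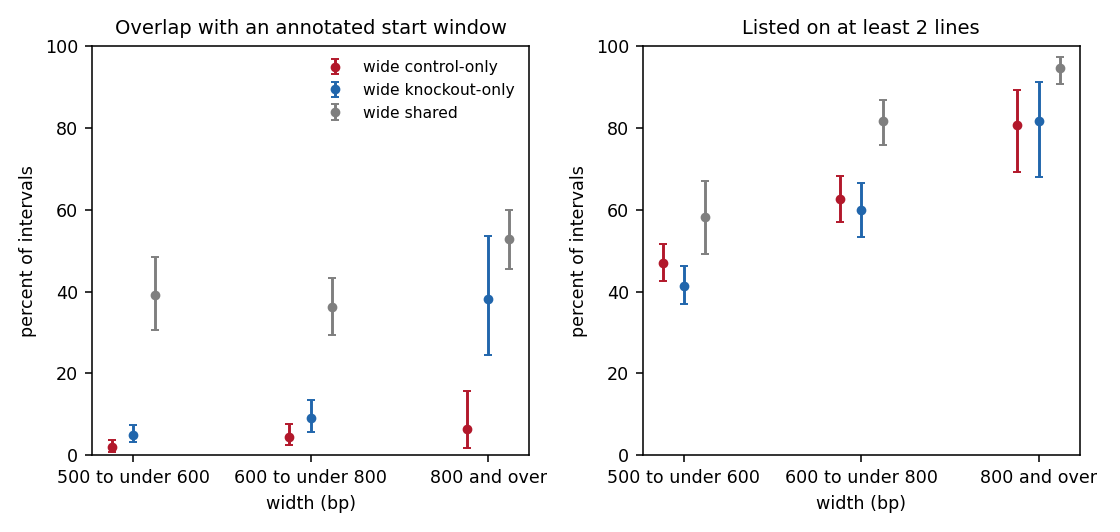
Share of wide sites away from gene ends that overlap an annotated start window (left, percent, without chromosome 18) or stand on at least 2 lines of their list (right, percent), in 3 bands of width in bp. Points are shares and bars are exact 95% intervals, for control-only sites, knockout-only sites and shared control intervals. In each band the shared intervals lie highest in both panels, and control-only sites lie below 7% in the left panel.

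Wide control intervals away from gene ends lacked a knockout overlap more often than those near gene ends. Away from gene ends 61.5% of 1389 wide control intervals had no knockout overlap, against 10.6% of 4729 within 1 kb of a gene end. The other direction gave 56.5% of 1284 wide knockout intervals away from gene ends and 16.8% of 5319 near them. Among narrow intervals away from gene ends the shares were 94.5% for knockout and 90.5% for control, among intervals of any width there they were 90.4% and 85.4%, and among all wide intervals 24.5% and 22.1%. Over all autosomal intervals 67.8% of the knockout list and 55.8% of the control list had no overlap. The rule uses these values, so nothing is read from them about the sites. By the same description, 854 of the 1354 wide control intervals without an overlap lay away from gene ends, as did 725 of the 1617 wide knockout intervals without one. The knockout list is the longer on each of the 19 autosomes, with 20845 intervals, against 15241 for control. The sources used here give no read number for either list, and depth and genotype cannot be told apart.

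Most sites had a knockout interval in the neighbourhood, though none on them. The nearest knockout interval was a median of 19.4 kb away (17.6 to 22.1 kb). It was under 500 bp away for 29 sites, under 10 kb for 259 sites and over 100 kb for 81 sites, or 9.48% (7.60% to 11.7%). For knockout-only sites, the nearest control interval was a median of 24.1 kb away and over 100 kb away for 15.9% (13.3% to 18.7%). These distances also depend on list length, and the knockout list is the longer. The closest pairings were 2 bp (chr17:27291422-27292218), 14 bp (inside Paox, a polyamine oxidase gene), 22 bp (chr14:9163167-9163757), 35 bp (inside Copg2, a coatomer gene) and 90 bp, beside Ccnd1, which encodes cyclin D1. At the other extreme, the site inside the non-coding gene Gm33860 on chromosome 18 was 1803529 bp from any knockout interval. The next were sites inside Cadps2 and Nol4, at 688252 and 641374 bp, then a site 488368 bp from Cylc2 and a site inside Lingo2, at 475402 and 454050 bp.

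Along the chromosomes the sites crowded toward the far telomere. The span of each autosome covered by annotated genes was cut into 5 equal segments, numbered from the centromere end, and 406 of the 854 sites, 47.5% (44.1% to 51.0%), lay in segment 5. Segments 1 to 5 held 156, 83, 83, 126 and 406 sites. The territory open to them did not follow this order, since each segment holds between 19.7% and 20.1% of the bases lying over 1 kb from gene ends, and 23.5% of annotated genes lie in segment 5. Per 10 Mb of that territory segments 1 to 5 held 3.46, 1.84, 1.84, 2.79 and 9.14 sites.

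**Figure D2:**
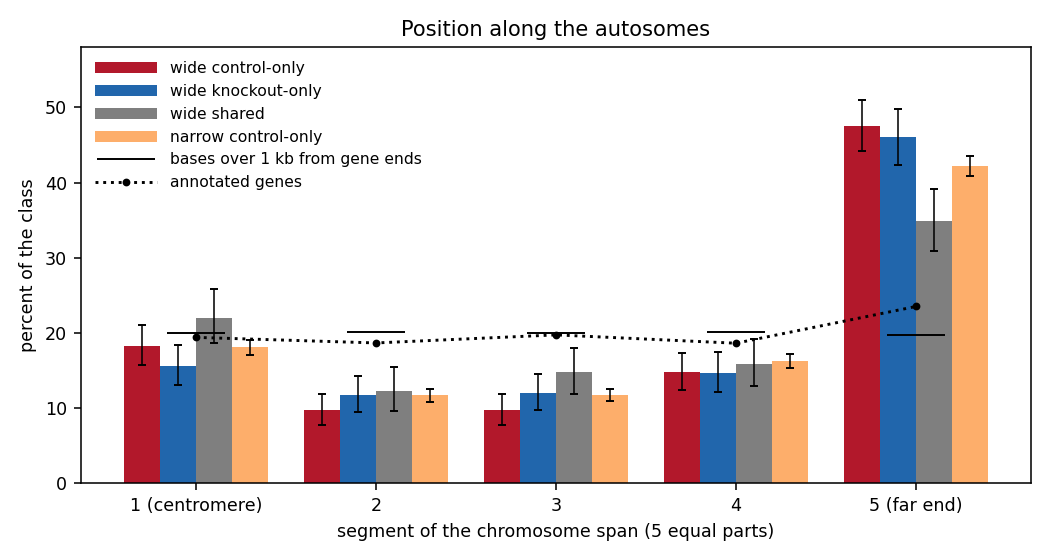
Percent of each class of site in each segment of the autosomes, from the centromere end (1) to the far end (5). Bars are wide control-only, wide knockout-only, wide shared and narrow control-only sites away from gene ends with exact 95% intervals, horizontal strokes are the share of bases over 1 kb from gene ends, and dots are the share of annotated genes. All classes peak in segment 5, where the control-only sites reach 47.5% and the shared intervals 34.95%.

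This crowding was found in other classes too. Segment 5 held 46.1% of wide knockout-only sites (42.4% to 49.8%), whose interval overlaps that of the control-only sites. It held 34.95% of wide shared control intervals (30.9% to 39.2%), whose interval does not. All autosomal knockout intervals had 33.7% there, and all autosomal control intervals 36.3%. Of narrow control-only sites 42.2% lay there (40.9% to 43.5%), with an interval just below that of the wide control-only sites. The density of the narrow sites in segment 5 was 55.5 per 10 Mb, against 15.1 in segment 2. Within 5 Mb of the far end lay 18.3% of the control-only sites, 19.03% of wide knockout-only sites, 13.5% of wide shared control intervals and 10.8% of all control intervals. The next 5 Mb held 13.8% of the control-only sites and 10.8% of the knockout-only sites, and between 10 and 15 Mb from the end the shares were 6.21% and 5.24%.

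Segment 5 held more sites than any other segment on 16 of the 19 autosomes. On chromosome 4 it held 50 of 66 sites, between 125.7 and 156.4 Mb, where there were 29 knockout-only and 23 shared wide sites. On chromosome 10 segments 4 and 5 held 12 each, and on chromosome 16 segments 1 and 5 held 14 each. Chromosome 17 went the other way, with 25 sites in segment 1, from 3.01 to 21.4 Mb, and 19 in segment 5. That first segment had 8 wide knockout-only and 8 wide shared sites, while the knockout list had 228 intervals there and the control list 224. Narrow control-only sites were also most numerous there, with 111, 67, 49, 37 and 84 in segments 1 to 5 of chromosome 17. This first segment was chosen after the values were seen.

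**Figure D3:**
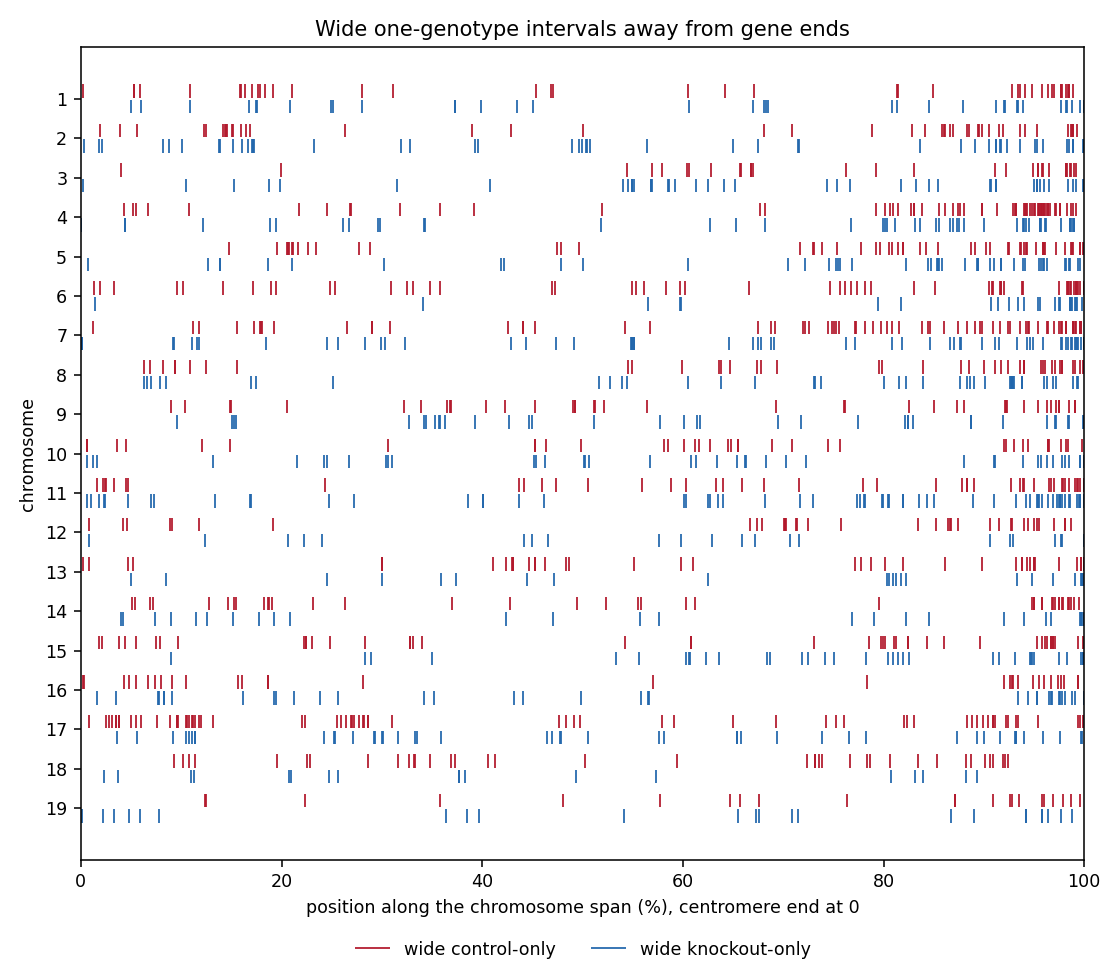
Position of every wide control-only and wide knockout-only site away from gene ends, 1 mark each, as percent of the chromosome span from the centromere end, for chromosomes 1 to 19. Both classes thicken to the right on most chromosomes, and control-only marks also gather at the left end of chromosome 17.

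The sites in segment 1 of chromosome 17 came in several settings. The Tulp4 site and the Tmem181a start lie close together in the same stretch. Whether related copies elsewhere share reads with these sites was not tested. Igf2r, the imprinted receptor gene that also lies under the non-coding Airn, held a site of 623 bp at chr17:12757666-12758288. Arid1b, Zdhhc14, Snx9, Pde10a, Pnldc1, Afdn and Ermard each held 1. The non-coding gene Gm36684 held 2 sites of 768 and 774 bp, listed on 4 and 3 lines.

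By chromosome the density averaged 0.355 sites per Mb of span. Chromosome 17 was highest with 69 sites, or 0.751 per Mb, followed by chromosome 7 with 73 (0.513 per Mb) and chromosome 18 with 39 (0.445 per Mb). Chromosome 3 was lowest with 31 sites (0.198 per Mb) and chromosome 1 next with 42 (0.218 per Mb). Control-only sites outnumbered knockout-only sites on 12 autosomes, equalled them on chromosome 8 with 42 each, and were fewer on 6. The balance ran from 45 against 65 on chromosome 11 to 56 against 25 on chromosome 6 and 39 against 18 on chromosome 18. Across the 19 autosomes, sites per Mb tracked control intervals per Mb (Pearson r = 0.702, Spearman rho = 0.714). Against genes per Mb the values were r = 0.491 and rho = 0.375. Against the length of the span they were r = -0.468 and rho = -0.449 (r = -0.461 without the 2 chromosomes of most unusual length). All control intervals per Mb gave r = -0.569 and rho = -0.472 against span length, and wide knockout-only sites gave r = -0.374 and rho = -0.363. A lower density on longer chromosomes is therefore not particular to the sites. These are descriptions over chromosomes, with 1 list per genotype.

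**Figure D4:**
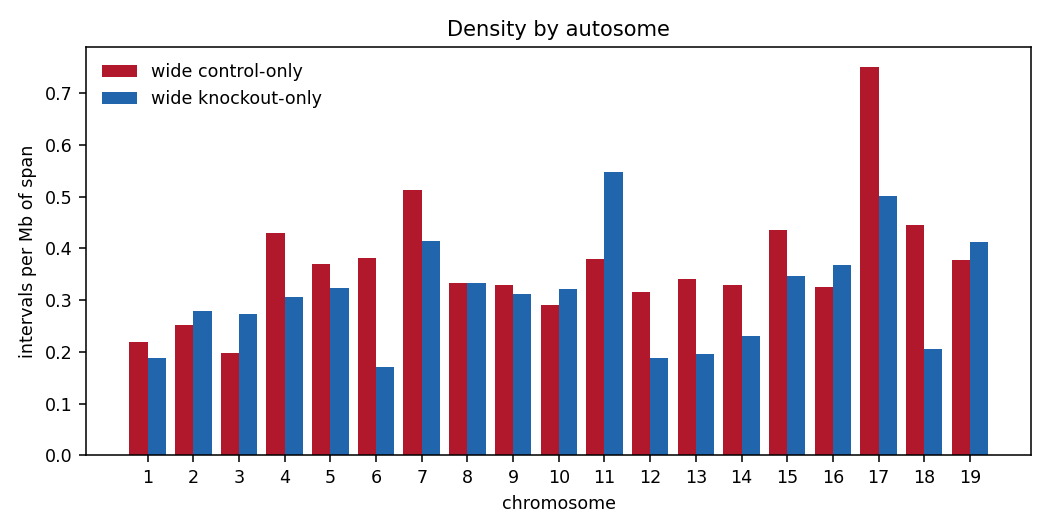
Wide control-only and wide knockout-only sites away from gene ends per Mb of span, by autosome. Chromosome 17 has the highest control-only density, 0.751 per Mb, and chromosome 11 has more knockout-only than control-only sites.

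Neighbouring sites stood far apart. The 835 gaps between midpoints of neighbours on a chromosome had a median of 854 kb (730 to 974 kb), and 54 gaps exceeded 10 Mb. The 725 knockout-only sites had a median gap of 1167 kb, and the 535 shared wide intervals 1820 kb. Gaps also depend on how many sites a class holds, and the part of that number was not tested. Another control-only site lay within 10 kb of 2.58% of the sites, within 100 kb of 20.1% and within 1 Mb of 74.0%. The shares for knockout-only sites were 2.62%, 19.4% and 66.9%. Between neighbours within segment 5 the median gap was 493 kb, against 1418 kb between neighbours in the other segments. The median width was 583 bp in segment 5 (574 to 602) and 574 bp in the others (563 to 587), so the intervals overlap. The share inside genes was 62.6% in segment 5 (57.7% to 67.3%) and 63.8% in the others (59.2% to 68.3%), and these intervals overlap too. The nearest gene end was a median of 11.98 kb away in segment 5 (10.5 to 14.4 kb) and 8.85 kb in the others (7.25 to 10.7 kb), with intervals that just overlap. For knockout-only sites the medians were 10.6 and 8.38 kb.

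Few sites formed tight groups. The closest pair by midpoints, with 268 bp between them at chr4:145847875-145848382 and chr4:145848651-145849328, lay beside Zfp980 in a cluster of related zinc finger genes, where shared reads were not tested. A pair beside Gnal, an olfactory G protein gene on chromosome 18, had 251 bp between them, and a pair inside Rps6kl1 on chromosome 12 had 539 bp. The next, beside Mcidas, a regulator of multiciliated cells, and beside Olfr161, had 6056 and 6637 bp. Sites occupied 567 windows of 1 Mb, and 381 of these held 1 site. There were 8 windows with 5 or 6 sites, picked here after seeing their values. The window at 100 to 101 Mb of chromosome 15 held 6 sites and no wide knockout-only site, in or beside Dip2b, Pou6f1, Slc4a8 and the sodium channel gene Scn8a. Its list totals were 30 knockout and 31 control intervals. On chromosome 4 the adjoining windows from 149 to 151 Mb held 12 sites together, in or beside Kif1b, Rbp7, Pik3cd, Slc2a5 and Rere. At 144 to 145 Mb on chromosome 7 there were 6 control-only and 5 knockout-only sites around Shank2, Ano1, Fgf15 and Ccnd1.

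Some long stretches had none. The widest gap, 55.7 Mb on chromosome 12 from 25420031 to 81105895, held 763 genes and 144 control intervals, with 10 wide knockout-only sites. Gaps of 54.2 Mb on chromosome 3 and 49.2 Mb on chromosome 8 held 750 and 763 genes, and 3 and 7 wide knockout-only sites.

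Most sites lay inside genes. Of the 854, 540 lay inside an annotated gene, 63.2% (59.9% to 66.5%), and 460 inside a protein-coding gene. By comparison 48.6% of all bases over 1 kb from gene ends lie inside a gene. The share was 62.3% for wide knockout-only sites (58.7% to 65.9%), 64.3% for narrow control-only sites and 80.6% for wide shared control intervals (76.9% to 83.8%). Exon and intron could not be told apart, because the gene table gives only gene starts and ends. The nearest gene end was a median of 10.5 kb away (9.29 to 11.8 kb) for control-only sites, 9.39 kb (8.21 to 10.7 kb) for knockout-only sites and 4.79 kb (4.20 to 5.66 kb) for shared intervals. Within 100 kb there was a median of 9 gene ends for the control-only sites, 10 for knockout-only sites and 12 for shared intervals.

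The sites lay in 517 genes, 426 of them protein-coding and 85 long non-coding. The 426 are 2.07% of the 20558 autosomal protein-coding genes, and their median length was 93.5 kb against 17.6 kb for all of those genes. Of the 426, 197 were over 100 kb long. A longer gene offers more bases to a site. Genes holding knockout-only sites had a median of 71.4 kb and genes holding shared intervals 48.3 kb. The share of genes with a site grew with length up to 500 kb in all 3 classes. A control-only site lay in 0.137% of coding genes up to 10 kb, 1.53% of those of 10 to 50 kb, 3.66% of those of 50 to 100 kb and 7.78% of those of 100 to 500 kb. Above 500 kb it was 34 of 216 genes, 15.7% (11.2% to 21.3%), where knockout-only sites lay in 22 and shared intervals in 9.

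**Figure D5:**
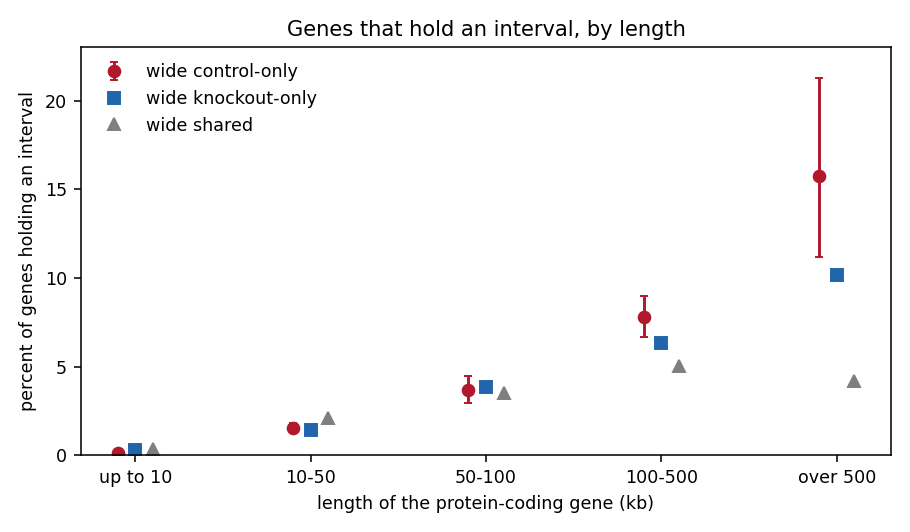
Percent of autosomal protein-coding genes that hold a wide site away from gene ends, by gene length in kb, for control-only, knockout-only and shared sites. Bars are exact 95% intervals and are drawn for control-only sites. All 3 classes climb to the 100 to 500 kb band, and above 500 kb the control-only share is 15.7%.

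Few genes held several sites. Igh, the immunoglobulin heavy-chain locus at 2751 kb, held 4 sites of 515, 566, 742 and 698 bp and no wide knockout-only site. The potassium channel gene Kcnh1 held 3 sites of 800, 604 and 587 bp, and Negr1, which encodes a neuronal adhesion protein, held 3 of 519, 602 and 582 bp. Neither held a wide knockout-only or shared site. Next in the order of naming, with 2 each, came the chloride channel gene Ano1, the calcium-dependent kinase gene Camk2b, the transcription activator gene Camta1, the cadherin gene Cdh4, the netrin receptor gene Dcc and the GTPase exchange factor gene Dock9. In all 37 genes held at least 2 sites, among them Macroh2a1, which encodes a macroH2A histone variant and was named after its count was seen.

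The sites farthest from any gene lay in wide deserts. The farthest, at chr14:9163167-9163757, was 236985 bp from the nearest gene end and 386335 bp from Fhit, and was also 22 bp from a knockout interval. The second, chr3:147652766-147653337, was 219479 bp from a gene end. Of the other 3, chr16:7592136-7592663 and chr16:8208243-8209046 lay 175228 and 127947 bp out, and chr17:94468889-94469462 lay 138687 bp out. In all 27 sites were over 100 kb from every gene end, which includes sites deep inside long genes.

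The 26 overlaps with a start window are 3.19% of the 815 sites off chromosome 18 (2.09% to 4.64%). The share was 8.49% of knockout-only sites (6.54% to 10.8%), 43.3% of shared intervals (39.0% to 47.7%) and 0.735% of narrow control-only sites. The width bands kept that order, and at 800 bp and over a start window was met by 4 of 62 control-only sites, 18 of 47 knockout-only sites and 105 of 199 shared intervals. The start base itself lay inside the site in 27 of the 29 windows. Besides the 5 genes printed above, these windows belonged to genes of various roles. They include Pik3cd, a lipid kinase subunit gene, Kansl1, a scaffold of a histone acetyltransferase complex, Mrps2 and Mrps23 of the mitochondrial ribosome, Stn1, which protects telomeres, and Aptx, which trims damaged DNA ends. The Tmem181a, Lcorl and Sgk1 sites were 133, 443 and 642 bp from a knockout interval, and the Zfp800 and Pde4dip sites 159529 and 108948 bp.

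No gene listed for meiotic recombination held a site. The count was 0 of 14 genes for hotspot placement and break formation, 0 of 23 for strand exchange and crossover and 0 of 16 for the chromosome axis and synaptonemal complex, against 2.07% of all protein-coding genes. In lists this short a count of 0 does not differ from that background in any way that can be read. Within 50 kb there was a site for Zcwpw1, whose protein reads PRDM9-made histone marks, at 28676 bp, and for Mlh3, a crossover resolution gene, at 9147 bp. Both sites lay inside other genes. The site near Zcwpw1 lay inside Tsc22d4, and the site near Mlh3 lay inside Acyp1 and Zc2hc1c and contained a start of Acyp1. None of the 16 axis genes had one within 50 kb, where 6.94% of all coding genes did, and this 0 cannot be read as a lack either. Wide knockout-only sites lay within 50 kb of 0 of the hotspot and break genes, 1 of the strand exchange and crossover genes and 3 of the axis genes. Of 19 pachytene transcription regulators none held a site, and E2f6, a repressor of germline genes, had one at 22590 bp, inside Greb1.

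Of 14 genes of the SRCAP complex and H2A.Z, Ruvbl1 held a site of 818 bp at chr6:88471797-88472614. It encodes an ATPase shared by SRCAP, TIP60 and INO80. Srcap, the motor subunit, had a site 39805 bp away, which overlaps a start of Prr14. Among 40 developmental regulators Gata4 held 1 site of 577 bp, and Gata6, Olig2, Nkx2-5 and Emx2 had 1 within 50 kb. That is 2.5% with a site inside and 12.5% with one inside or within 50 kb, against 2.07% and 6.94% of all coding genes, and wide knockout-only sites gave 2 and 5 of the same 40. Of 32 very long adhesion, synaptic and fragile-site genes, whose median length is 1285 kb, 7 held a site, among them Csmd1, Fhit, Wwox, Rbfox1 and Opcml. Wide knockout-only sites lay in 5 of these 32, and the 21.9% with a control-only site is to be read beside the 15.7% of all genes over 500 kb.

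The labelled cell type can be set beside the gene-end intervals of the whole lists. Over all autosomal protein-coding genes, 40.5% had an interval at a gene end in the knockout list and 35.1% in the control list. An interval at a gene end was listed for 9 of 10 pachytene markers in the knockout list and 8 in the control list, and for 4 and 3 of 10 spermatogonial markers. Of 8 round spermatid markers 1 and 0 had one, of 9 Sertoli markers 2 and 0, and of 12 markers of other somatic cells (Leydig, peritubular, endothelial, immune) 1 and 0. Within 50 kb of a control-only site, or holding one, were 1 pachytene marker (Ldhc, at 9201 bp), 0 spermatogonial markers, 1 round spermatid marker (Tssk1, at 42024 bp), 1 Sertoli marker (Gata4, which held its site) and 1 of the other somatic markers (Cyp11a1, at 2643 bp). The sites near Ldhc, Tssk1 and Cyp11a1 lay inside other genes, namely Ldha, Gm41427 and Ccdc33 in that order. Over all coding genes 6.94% had a control-only site inside or within 50 kb, and in lists this short such counts cannot be told from that share. Wide knockout-only sites gave 1 in each of these marker lists, the spermatogonial list included. The part of other cells in the sites was not tested.

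Whether the sites are recombination hotspots was not tested, since no hotspot map, PRDM9 binding data or genome sequence of the sites was used. The measurements nearest to the question are these, and none of them decides it. A start window was met by 3.19% of the sites, a share that the rule limits by keeping sites over 1 kb from gene ends. Under the same gene-end limit it was 8.49% for wide knockout-only sites, 43.3% for wide shared intervals and 0.735% for narrow control-only sites. Inside genes lay 63.2% of the sites, 62.3% of wide knockout-only sites and 64.3% of narrow control-only sites, so this share is not particular to the sites. The far-end crowding that male crossovers are known for was present, but wide knockout-only sites and narrow control-only sites had it too. Segment 5 held 47.5% of the sites, 46.1% of wide knockout-only sites and 42.2% of narrow control-only sites. None of 6 genes beside classical mouse hotspots (Psmb9, H2-Eb1, H2-Ea, H2-Pb, Hlx and Esrrg) held a site or had one within 50 kb. Over all coding genes 2.07% held a site and 6.94% had one inside or within 50 kb, so 0 of 6 cannot be read as a lack. Wide knockout-only sites also gave 0 for these 6. The 854 sites had a median spacing of 854 kb, against 52.3 kb for the intervals of the whole control list. The sites are part of that list, so a wider spacing was fixed by their smaller number, and nothing is read from it about hotspots.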

How the data were processed

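ATAC-seq was run on pachytene spermatocytes from mouse testis, and nuclei were isolated before the Tn5 reaction, per the labels' protocols. The build is mm10, and MACS2 2.2.4, Picard 2.20.7, Bowtie2 2.3.4.3 and cutadapt 2.5 are listed, per the submitters' processing notes. The sources used here state neither their roles and thresholds nor any shift for the Tn5 cut. The deposited lists hold only chromosome, start and end, with no height or summit, so a wide interval is not known to be a strong one. There were 29656 lines for knockout and 24167 for control, and each different interval was counted once, leaving 21004 and 15376. Each list is recorded for the first library of its genotype, and the sources used here do not say whether it pools replicates. The other 2 libraries were not analysed here.

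Positions are 1-based. Genes came from a RefSeq table of GRCm38.p6 with gene starts and ends but no strand or exons. Of its 47042 autosomal rows, 333 stood after the first fall in start position within their chromosome. These 333 were taken to carry coordinates of other scaffolds and were dropped. Start windows came from RefSeq for 18 autosomes. Overlap means at least 1 base. Work used Python 3.11.15, numpy 2.4.6, pandas 2.3.3, scipy 1.17.1 and matplotlib 3.10.9. The rule was tested on 1200 simulated intervals, where 650 of 650 planted sites were recovered and 0 of 550 others were called. bedtools 2.31.1 gave the same 8503 control-only intervals.

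The sites and gene lists were chosen with earlier results of these data known. Named items were the 10 widest sites, the 5 on most lines, the 5 nearest to and farthest from a knockout interval, from genes and from the width limit, the 5 closest pairs, the 10 genes with most sites, and up to 6 genes per list with a site inside or within 50 kb. Other names were chosen after their values were seen, and some genes that the rule names are not reported here. There were 10 alternatives: an overlap of 50% of both intervals, gaps of up to 500 bp counted as shared, merging within 200 bp, widths of 400 and 700 bp, gene-end distances of 500 bp and 3 kb, protein-coding ends only, intervals on at least 2 lines, and equal numbers of the widest intervals from both lists.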

Additional observations from a re-analysis of the deposited data

How the results depend on the processing

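The share of sites in the last of 5 equal segments of the chromosomes stayed between 45.3% and 50.1%, the median number of gene ends within 100 kb between 8 and 10, and the ratio of wide control-only to wide knockout-only sites above 1, under all 10 alternatives. No value reversed. Other values depend on the limits by construction, since they change which intervals are counted. With a width of at least 700 bp there were 149 sites, 57.7% inside a gene, the share without knockout overlap was 33.6%, the median gap 3912 kb and the ratio 1.31. With at least 400 bp there were 1857 sites, a share without overlap of 71.9%, a gap of 421.7 kb and a ratio of 1.03. Requiring an overlap of 50% of both intervals gave a share of 70.1% and a gap of 726 kb. Gene-end distances of 500 bp and 3 kb gave shares of 57.3% and 67.1%, with a gap of 1068 kb at 3 kb, and protein-coding ends alone gave 57.4%. Intervals on at least 2 lines numbered 471, with a share of 52.0% and a gap of 1351 kb. No paired analysis was possible because 1 list per genotype was analysed and no result comes from a test. For the same reason no replicate could be left out, and the depth behind the lists is unknown.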

Other observations

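The same width, overlap and gene-end limits, applied to the sex chromosomes, left 3 wide knockout-only intervals on X and 0 on Y, and 4 wide control-only intervals on X and 3 on Y. The knockout list had 132 intervals on X and 27 on Y, and the control list had 107 and 28.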
